A study of Mus musculus with 4 samples.

Results

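Small nucleolar RNAs (snoRNAs) were described in 4 ribosome footprint libraries of the mouse dorsal root ganglion, which holds the cell bodies of sensory neurons and their glia. The table lists 48431 genes, of which 140 have a symbol starting with Snora or Snord, and the 94 of these with a mean of at least 1 CPM over the 4 libraries are the members. CPM are reads per 1000000 reads of a library, not divided by gene length. The members are 31 of the 41 Snora rows, by name box H/ACA snoRNAs, and 63 of the 99 Snord rows, by name box C/D snoRNAs. The members were thus chosen by their own mean level in these 4 libraries, so these levels are a description and carry no test. By annotation 93 members are snoRNA, while Snord43 is annotated as miRNA and is counted here by its name. The libraries form 1 group: male wild-type mice of the strain labelled SW, given methylglyoxal (MGO), a reactive by-product of glycolysis, at 2 mg/kg intraperitoneally for 6 days. Another field of the same samples describes a saline control, in conflict with the treatment given, and the libraries are therefore named by replicate number alone. Neither an age nor a separate animal for each replicate is stated in the labels. No control libraries were analysed here, so the comparisons are between members within a library and between the libraries.

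snoRNAs are short noncoding RNAs of the nucleolus. Most are cut out of introns of other genes, their hosts, and guide the chemical modification of ribosomal RNA. Box C/D snoRNAs carry the boxes C and D near their ends, bind fibrillarin and guide 2′-O-methylation, with a guide stretch that pairs with the target just upstream of a D box. Box H/ACA snoRNAs fold into hairpins, carry the H box in the middle and ACA near the 3′ end, bind dyskerin and guide pseudouridylation. A few of either kind act in the cleavage of the ribosomal RNA precursor. They are not translated, so their values in a footprint library are levels of RNA fragments of the selected size, 28 to 34 nt, and no measure of ribosomes on a message. In bulk tissue, fewer cells of a type and less RNA per cell cannot be told apart.

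The sequences shown are those of the 5 members with the highest mean, of Snord88c with its near copy Snord88a, and of Snora3 and Snora21, which had the largest differences toward replicates 1 and 2. They are GENCODE M21 transcripts on GRCm38, written 5′ to 3′, and capitals mark the boxes found: TGATGA (box C) in the first 20 bases, CTGA (box D) in the last 15 bases, or ACA in the last 8 bases. The first lines are box C/D.
Snord83b (chr15:80078498-80078591, minus strand): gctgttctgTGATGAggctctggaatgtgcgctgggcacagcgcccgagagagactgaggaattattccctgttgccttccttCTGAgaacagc
Snord85 (chr4:130749634-130749706, plus strand): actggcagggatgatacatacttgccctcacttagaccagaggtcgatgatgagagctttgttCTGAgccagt
Snord23 (chr7:15938762-15938870, minus strand): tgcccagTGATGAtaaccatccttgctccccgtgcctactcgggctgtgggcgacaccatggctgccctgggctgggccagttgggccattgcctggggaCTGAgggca
Snord88c (chr7:44249852-44249941, plus strand): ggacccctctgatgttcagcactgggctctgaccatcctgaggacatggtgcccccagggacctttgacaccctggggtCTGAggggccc
Snord88a (chr7:44250135-44250224, plus strand): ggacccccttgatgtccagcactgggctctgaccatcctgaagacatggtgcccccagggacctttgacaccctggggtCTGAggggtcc
The next lines are box H/ACA.
Snora20 (chr17:12922790-12922917, plus strand): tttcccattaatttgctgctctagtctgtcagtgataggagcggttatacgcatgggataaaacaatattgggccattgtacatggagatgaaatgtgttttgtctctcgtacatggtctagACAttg
Snora64 (chr17:24720772-24720905, plus strand): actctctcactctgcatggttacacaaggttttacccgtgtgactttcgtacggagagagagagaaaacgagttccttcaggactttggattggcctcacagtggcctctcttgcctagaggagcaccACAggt
Snora3 (chr7:109520120-109520251, plus strand): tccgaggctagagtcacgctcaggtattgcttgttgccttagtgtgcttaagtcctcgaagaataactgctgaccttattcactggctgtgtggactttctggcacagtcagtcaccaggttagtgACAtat
Snora21 (chr11:97781639-97781775, minus strand): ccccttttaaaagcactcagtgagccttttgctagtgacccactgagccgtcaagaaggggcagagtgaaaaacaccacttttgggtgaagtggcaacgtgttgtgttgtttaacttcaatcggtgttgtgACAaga

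From the value that 1 read is worth in each library, replicates 1 to 4 had 3487634, 2633870, 2610537 and 3753015 reads. A listed 0 allows up to 0.860, 1.14, 1.15 and 0.799 CPM, which is 3 reads and a limit of counting error alone. The libraries formed 2 pairs. Chi-square per degree of freedom over genes was 1.03 for replicate 1 against 2 and 1.05 for replicate 3 against 4, close to sampling noise, and 3.35 to 4.14 for libraries of different pairs. A pair was counted as 1 sample, so a mean ± SD covers the 2 pair means. The defining markers of the tissue were present: all 8 sensory neuron genes of the list, such as Nefl and Calca, and all 4 glial genes were above 1 CPM. Some of these markers also separated the pairs: Calca, a neuropeptide gene of sensory neurons, stood at 449, 437, 622 and 618 CPM, and the myelin gene Pmp22 at 6650, 6738, 8246 and 8302 CPM. Their part in the differences below was not tested.

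The 94 members together held 2079, 2134, 3320 and 3346 CPM in replicates 1 to 4, which is between 0.208% and 0.335% of a library and rests on 5621 to 12557 reads. The sum was 1.58-fold higher in replicates 3 and 4 than in 1 and 2, and 1.48-fold higher without Snord83b, the member with the largest gain. Box C/D members summed to 1350, 1353, 2397 and 2456 CPM (1889 ± 760, SD, n = 2). Box H/ACA members summed to 729, 781, 923 and 890 CPM (831 ± 107, SD, n = 2). The box C/D sum was thus 1.73 to 2.76 times the box H/ACA sum in each library, with the higher ratios in replicates 3 and 4. Per 100 bases of each gene, the mean sums were 2172 CPM for box C/D and 621 CPM for box H/ACA members. The level was concentrated in few genes. The 4 highest Snora members made up 67.5% of their sum and the 4 highest Snord members 46.7% of theirs. Only 6 members reached a mean of 100 CPM and 42 reached 10, namely 16 Snora and 26 Snord.

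Over all members, the median level per length was higher in box C/D than in box H/ACA. The annotated lengths ran from 64 to 238 bases, with a median of 132 for Snora and 78 for Snord members. The median level per 100 bases was 8.37 CPM for Snord and 6.13 CPM for Snora members. On the log2(CPM per 100 bases + 1) scale the Snora median lay below the Snord median in all 4 libraries, by -0.71, -0.74, -0.67 and -0.45 (mean -0.64 ± 0.11, SD, n = 2). Without division by length the order turned: the Snora median of log2(CPM + 1) was above the Snord median by 0.41, 0.00, 0.25 and 0.08 (mean 0.18 ± 0.03, SD, n = 2), so that in replicate 2 the medians were level to 2 decimals. It also turned when only members of at least 2 CPM were kept (-0.03) or the mean was used in place of the median (-0.05). Without members that share windows of 28 bases with other genes, which leaves 10 Snora and 52 Snord members, it was 1.25. On that smaller set the order per length turned as well: the medians were 15.0 CPM per 100 bases for Snora and 8.51 for Snord members, and the log2 difference was 0.62, with Snora higher in 4 of 4 libraries. Which class is higher therefore depends on length, on the cutoff and on the members with shared sequence.

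**Figure D1:**
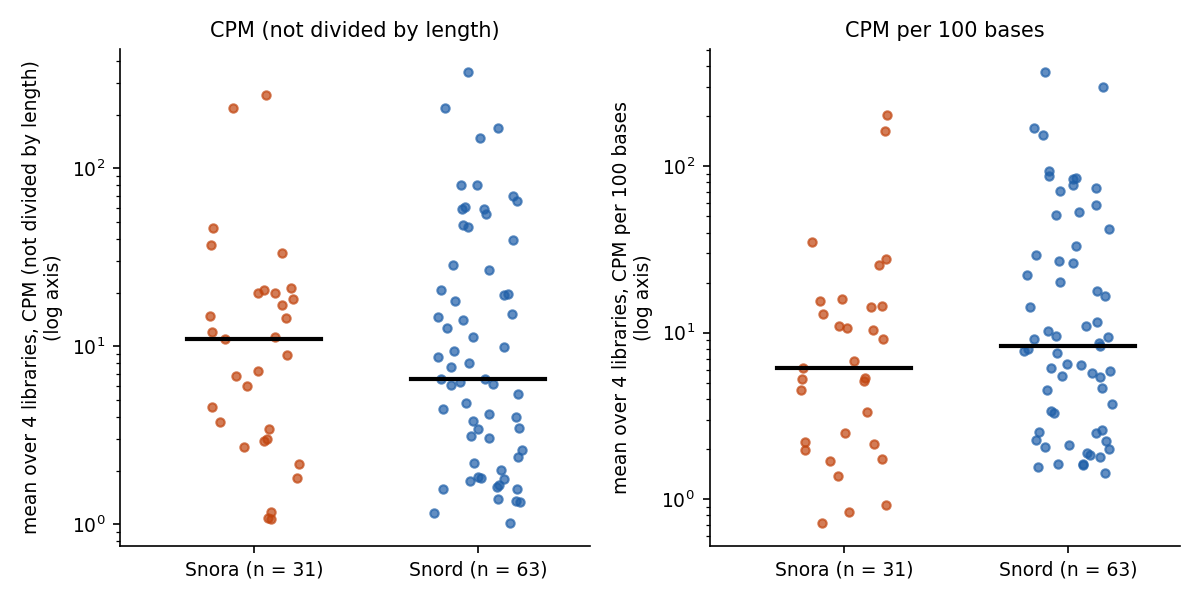
Mean level of each member over the 4 libraries on a log axis, as CPM (left) and as CPM per 100 bases (right), for 31 Snora and 63 Snord members, each point a gene and each bar the class median. The Snora median lies above the Snord median on the left and, at 6.13 against 8.37 CPM per 100 bases, below it on the right.

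Among box C/D members, Snord83b was the highest on both scales. It stood at 194, 190, 483 and 523 CPM in replicates 1 to 4 (mean 348 ± 220, SD, n = 2), or 370 CPM per 100 bases. Replicates 3 and 4 lay above 1 and 2 with no overlap. Its host Rpl3, a protein gene of the large ribosomal subunit, stood at 48.2, 47.8, 45.6 and 49.8 CPM in the same libraries. Snord85 stood at 173, 184, 257 and 262 CPM (219 ± 57.0, SD, n = 2; 300 CPM per 100 bases). Snord87, in the noncoding host Snhg6, stood at 133, 128, 164 and 163 CPM (147 ± 23.4, SD, n = 2). Both were again higher in replicates 3 and 4. Per 100 bases, Snord87 held 169 CPM and the exons of Snhg6 held 0.0578 CPM. Snhg6 itself stood at 0.287, 0.380, 0.383 and 1.60 CPM, under the floor of 3 reads in replicates 1 to 3, so the size of this contrast is uncertain. The other members among the 12 highest of the class were Snord68, Snord21, Snord67, Snord49a, Snord110, Snord32a and Snord100, with means from 55.0 to 80.5 CPM, besides Snord23 and Snord88c described below.

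Among box H/ACA members, Snora20 came first. It is encoded in Tcp1, a subunit gene of the chaperonin that folds actin and tubulin, and stood at 193, 205, 326 and 311 CPM (259 ± 84.7, SD, n = 2; 202 CPM per 100 bases). Snora64, in Rps2, stood at 176, 177, 257 and 265 CPM (219 ± 59.4, SD, n = 2). Both were higher in replicates 3 and 4 with no overlap. A wide gap followed, to Snora3 with a mean of 46.3 CPM. Snora75, in the nucleolin gene Ncl, was the steadiest of the abundant members, at 37.5, 35.6, 37.5 and 36.9 CPM (36.9 ± 0.452, SD, n = 2). Snora64 and Snora75 lie within host exons, and all their windows of 28 bases occur in a host transcript. Their values are not whole reads, and reads of each and of its host cannot be told apart by sequence. Snora31, in Tpt1, stood at 31.8, 42.9, 26.0 and 32.5 CPM, and the pairs overlapped. The other members among the 12 highest of the class (Snora73a, Snora69, Snora78, Snora7a, Snora28, Snora68 and Snora21) had means from 14.7 to 21.2 CPM. Snora73a, Snora69, Snora7a and Snora28 were higher in replicates 3 and 4, Snora68 and Snora21 were lower, and Snora78 overlapped.

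**Figure D2:**
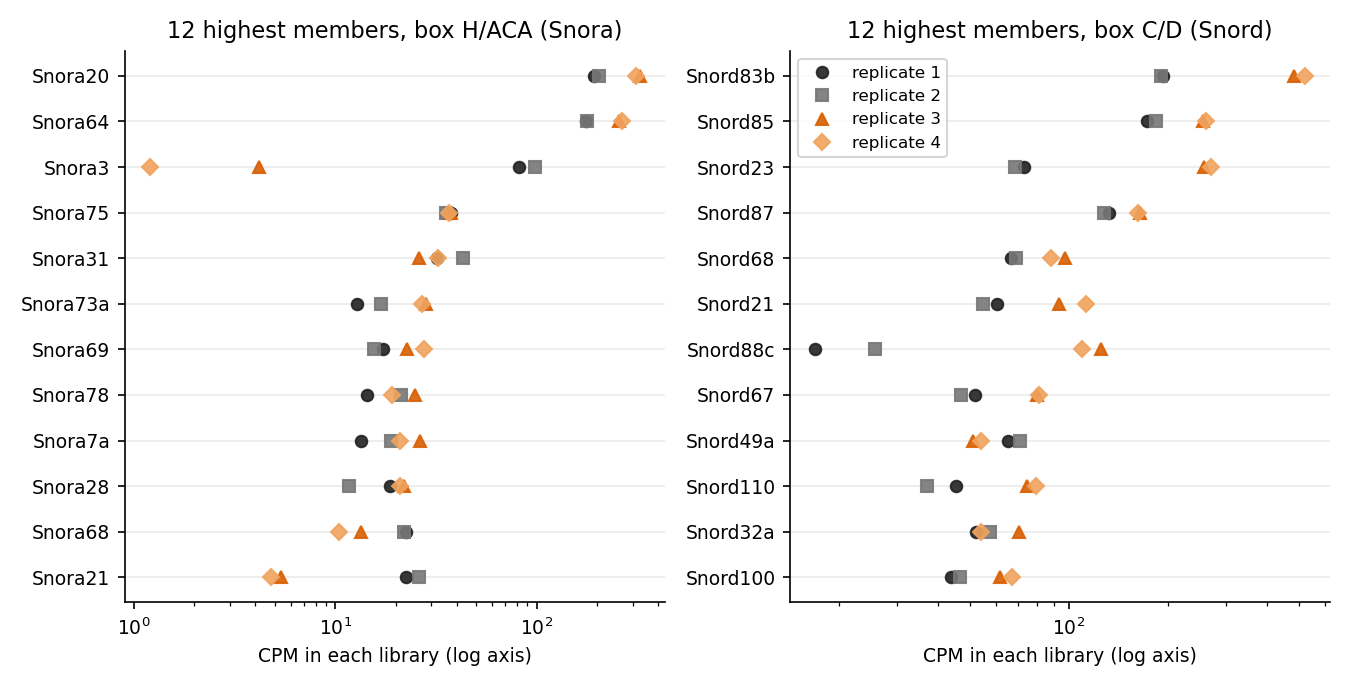
CPM of the 12 highest box H/ACA members (left) and the 12 highest box C/D members (right) in each of the 4 libraries, on log axes, each point a library. Replicates 1 and 2 (dark) and replicates 3 and 4 (orange) lie close together within a pair for most genes, Snora3 lies at 81.6 and 98.0 CPM in the first pair and 4.20 and 1.20 CPM in the second, and Snord88c and Snord23 lie to the right in replicates 3 and 4.

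The cutoff passed through a dense part of the range. The 4 members just inside it were Snord123 at 1.01, Snora57 at 1.06, Snora44 at 1.08 and Snord93 at 1.15 CPM. The 4 rows just outside were Snord111 at 0.946, Snord11 at 0.844, Snord73a at 0.663 and Snora47 at 0.592 CPM. All 8 values lie at or near the floor of 3 reads in a library. Of the rows that are no members, 3 Snora and 22 Snord were listed at 0 in all 4 libraries.

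Variation between the libraries was tested, since the rule used only the mean. For each gene of the table with whole reads in every library and at least 20 reads in all, the reads were compared with the library totals by a chi-square test of homogeneity, with Benjamini-Hochberg adjustment over all 13670 genes tested. It compares these libraries beyond counting error, not conditions. Of the 54 members tested, 23 passed an adjusted p of 0.05, against a background of 7.15% of all genes. By class these were 6 of 17 Snora and 17 of 37 Snord members. With the reads of all genes rounded to whole numbers, 35 of 83 members passed (8.14% of all genes). Since power grows with reads, the counts were also taken by depth. Of members with 20 to under 100 reads, 4 of 25 passed (2.06% of such genes). Of those with 100 to under 500 reads, 9 of 17 passed (4.23%), and of those with 500 reads or more, 10 of 12 passed (18.1%). Within the pairs, by a two-sided exact binomial test, no member passed after adjustment, 0 of 44 for replicate 1 against 2 and 0 of 45 for 3 against 4, with 0% of all genes. At an unadjusted p under 0.05, 6 and 6 members passed, against 4.93% and 4.99% of all genes. Of the 23 members called over the 4 libraries, 22 had pairs that did not overlap. The other was Snord55, at 8.60, 4.94, 13.0 and 5.60 CPM, whose pairs overlapped. The matching count over all called genes was not taken, so this is not shown to be particular to the members. What separates the pairs is not given in the labels and was not tested.

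The main direction was toward replicates 3 and 4. In 44 of the 94 members (46.8%) both of these libraries lay above both of the others, against a background of 24.6% of the genes that reach 1 CPM on average. The opposite order held for 19 members (20.2%), against 23.4%, and 31 overlapped. By class, 12 of 31 Snora and 32 of 63 Snord members were higher in replicates 3 and 4, and 6 and 13 were lower. The median log2 difference of the pair means was 0.35 over the members and -0.004 over all genes of at least 1 CPM. The members that passed the test and were higher in replicates 3 and 4 numbered 4 Snora (1.54- to 2.49-fold) and 16 Snord (1.25- to 8.78-fold). Those that passed and were lower were Snora21 and Snora68, both box H/ACA. No box C/D member that was lower in replicates 3 and 4 passed on whole reads, and 1, Snord22, passed with reads rounded.

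**Figure D3:**
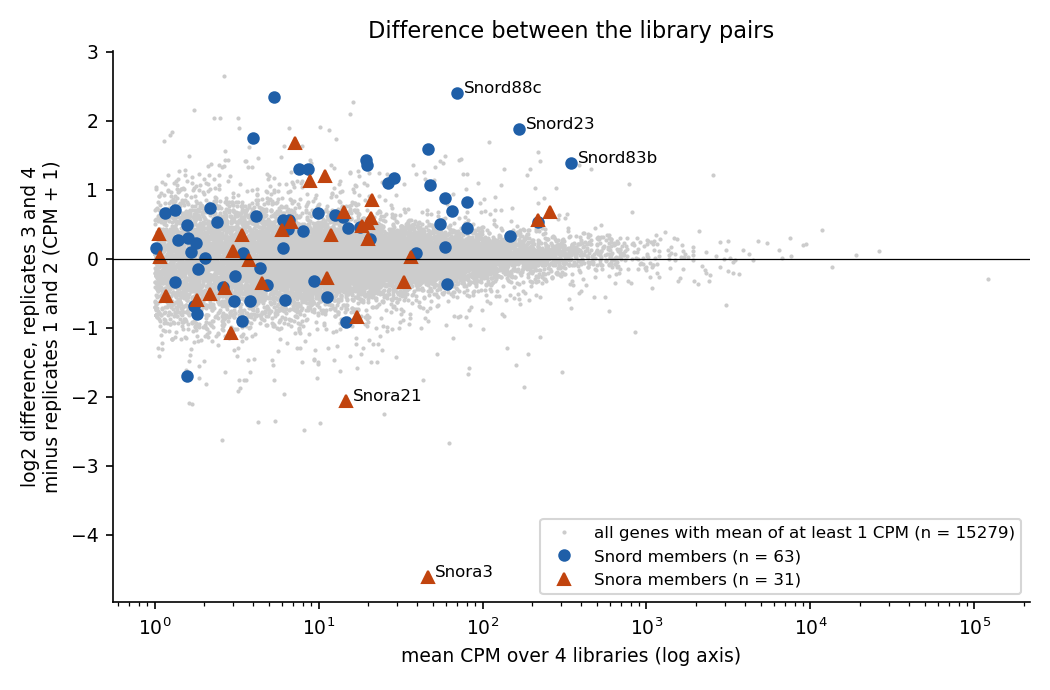
Difference between the library pairs, replicates 3 and 4 minus 1 and 2, on the log2(CPM + 1) scale against the mean CPM on a log axis, for 15279 genes (grey), 63 Snord members (blue circles) and 31 Snora members (orange triangles). Snord88c (2.41), Snord23 (1.89) and Snord83b (1.39) lie above most genes, and Snora21 (-2.06) and Snora3 (-4.62) lie below.

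Snord23 was among the members with the largest difference. It stood at 73.1, 68.7, 259 and 271 CPM (168 ± 137, SD, n = 2), 3.74-fold higher in replicates 3 and 4 with no overlap. The chi-square test gave an adjusted p of 1.83e-147. Its host Nop53, a ribosome biogenesis factor gene, stood at 42.1, 34.5, 31.0 and 31.4 CPM. The host was thus lower in the libraries where the snoRNA was higher.

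Snord88c stood at 16.9, 25.8, 126 and 110 CPM (69.5 ± 68.1, SD, n = 2), 5.51-fold higher in replicates 3 and 4. The chi-square test gave an adjusted p of 2.43e-87. Its log2 difference of 2.41 was the largest of the 8999 genes that reach 10 CPM on average. Snord88a, a near copy in the same host 2410002F23Rik, has the same base as Snord88c at 85 of 90 positions (94.4%), and 28.6% of the windows of 28 bases in each occur in another gene, so reads between them are uncertain. Snord88a stood at 32.7, 28.9, 62.4 and 68.7 CPM, 2.13-fold higher in replicates 3 and 4. The host stood between 15.4 and 19.8 CPM and overlapped between the pairs. Snord88a was named after its values were seen.

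Snora3 went the other way. It stood at 81.6, 98.0, 4.20 and 1.20 CPM (46.3 ± 61.6, SD, n = 2), and its mean in replicates 3 and 4 was 0.030 of that in replicates 1 and 2. Without replicate 2 the mean over the rest was 29.0 CPM. Its log2 difference of -4.62 was the lowest of the 15279 genes that reach 1 CPM on average. Its values are not whole reads, so it was outside the main test, and with reads rounded the chi-square test gave an adjusted p of 1.26e-111. The gene lies within an annotated exon of its host Rpl27a, a large-subunit ribosomal protein gene, and all its windows of 28 bases occur in a transcript of that host (100%), so reads of the snoRNA and of the host cannot be told apart by sequence. Rpl27a stood at 162, 140, 218 and 191 CPM, higher in replicates 3 and 4. The sum of both genes was 244, 238, 222 and 192 CPM, so the summed values of the pairs were nearer to each other than those of Snora3 alone. How the authors assigned reads that match both is not given in the sources at hand, and the part of this overlap in the result was not tested.

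Snora21, in the ribosomal protein gene Rpl23, stood at 22.4, 26.2, 5.36 and 4.80 CPM, and its mean in replicates 3 and 4 was 0.209 of that in 1 and 2 (chi-square test, adjusted p = 3.54e-15). It lies outside annotated exons of its host, which stood at 19.5, 18.6, 14.9 and 20.8 CPM and overlapped. Of its windows of 28 bases, 34.5% occur in another gene. Snora68 stood at 22.4, 22.0, 13.4 and 10.4 CPM, a ratio of 0.536 (chi-square test, adjusted p = 0.00204).

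Of the other members with large chi-square values, Snord89 stood at 23.5, 21.6, 77.8 and 62.9 CPM, Snord8 at 17.2, 17.5, 36.8 and 43.4 CPM, and Snord110 at 45.6, 37.2, 74.7 and 79.4 CPM. Snord49b stood at 10.9, 9.11, 26.8 and 30.6 CPM. All 4 were higher in replicates 3 and 4. Snord49b and Snord49a lie in the same noncoding host, 2410006H16Rik, with 70.7% identical bases, yet Snord49a went the other way at 65.4, 71.4, 51.3 and 54.1 CPM, a difference that missed the threshold (chi-square test, adjusted p = 0.0669). Over the 94 members, Spearman's rho between GC percent and the log2 difference was 0.12, and with length it was -0.10. With the mean level it was 0.39 over the 94 and 0.17 over the 46 members of at least 100 reads. These are descriptions of genes that share libraries and depth.

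Other small RNAs of the nucleus leaned the same way. Of 122 other rows annotated as snoRNA or small Cajal body RNA that reach 1 CPM on average, 60 (49.2%) were higher in both replicates 3 and 4, as were 76 of 103 rows annotated as small nuclear RNA (73.8%). Among protein-coding genes the share was 23.6%. Rnu3a, the U3 snoRNA, acts in cleavage of the ribosomal RNA precursor and is no member by its symbol. A row of that name stood at 627, 625, 978 and 1023 CPM, and another was listed at 0 in all 4 libraries. Scarna2, a guide of the Cajal body class, stood at 116, 107, 324 and 330 CPM. The RNase P RNA Rpph1 stood at 1791, 1826, 2339 and 2457 CPM. The detected Rnu3a row, Scarna2 and Rpph1 were all higher in replicates 3 and 4. The Y RNA Rny1 ran against this, at 924, 946, 821 and 870 CPM, while Rny3 stood at 181, 189, 368 and 390 CPM. The direction was thus not shared by all small RNAs.

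The protein genes of the snoRNA particles were measured in the same libraries. The box H/ACA core genes Dkc1 (dyskerin, the pseudouridine synthase), Nhp2, Nop10 and Gar1 had means of 13.4, 12.7, 42.5 and 7.20 CPM. The box C/D core genes Fbl (fibrillarin, the methyltransferase), Nop56, Nop58 and Nhp2l1 had means of 3.60, 42.9, 24.0 and 7.60 CPM. By the chi-square test 0 of 4 and 0 of 3 tested passed after adjustment, with 1 and 0 at an unadjusted p under 0.05 and 0 in either set with reads rounded. Of 14 assembly and transport genes, 0 passed, also with reads rounded, and 0 at an unadjusted p under 0.05, with means from 3.11 (Wrap53) to 54.9 CPM (Nolc1). With 7.15% of all genes called, sets of this size are expected to hold few calls or none, so these counts are near the background.

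Nearly all members lie inside another gene. An annotated host on the same strand holds 88 of the 94, in 66 different hosts: 25 members in 17 ribosomal protein genes, 38 in other coding genes and 25 in noncoding hosts. Noncoding here means any host not annotated as protein-coding, which includes Cct6a, the host of Snora15, at a mean of 183 CPM. In 87 cases the host is in the table. Not divided by length, 30 of these 87 members lay above their host, 7 of 27 Snora and 23 of 60 Snord. Per 100 bases of exon or snoRNA, 78 of 87 did, 26 of 27 Snora and 52 of 60 Snord, with a median ratio of 10.6. By host type this was 23 of 25 in ribosomal protein genes, 32 of 38 in other coding genes and 23 of 24 in noncoding hosts. The host length is the union of all annotated exons, so a host whose reads lie in only part of them gets a lower value. Members had to reach a mean of 1 CPM while hosts had no minimum, and 8 members had a host under 1 CPM. The rule thus favours members that lie above their host, so these counts are a description and carry no test. Of the 45 members within a host exon, 33 had values that are not whole reads, so reads of member and host are uncertain there. The lowest relative to its host was Snord59a, with 2.50 CPM per 100 bases against 23.4 in the ATP synthase gene Atp5b. Other members below their host were Snord37, with 5.41 against 21.6 in the elongation factor gene Eef2, the Snord14 members, with 1.61 to 2.55 against 6.56 in the chaperone gene Hspa8, and the box H/ACA member Snora44, with 0.838 against 2.51 in Snhg12. The level of a member showed little relation to that of its host. Spearman's rho over the 87 was 0.061 per 100 bases and 0.0097 in CPM, a description over genes that share libraries. Of the members higher in replicates 3 and 4 that have a host in the table, the host was also higher in 9, lower in 7 and overlapping in 24. Over all hosts in the table, 13 were higher, 16 lower and 36 overlapped. Of all genes of at least 1 CPM, 24.6% were higher and 23.4% lower, so the host counts are near the background.

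**Figure D4:**
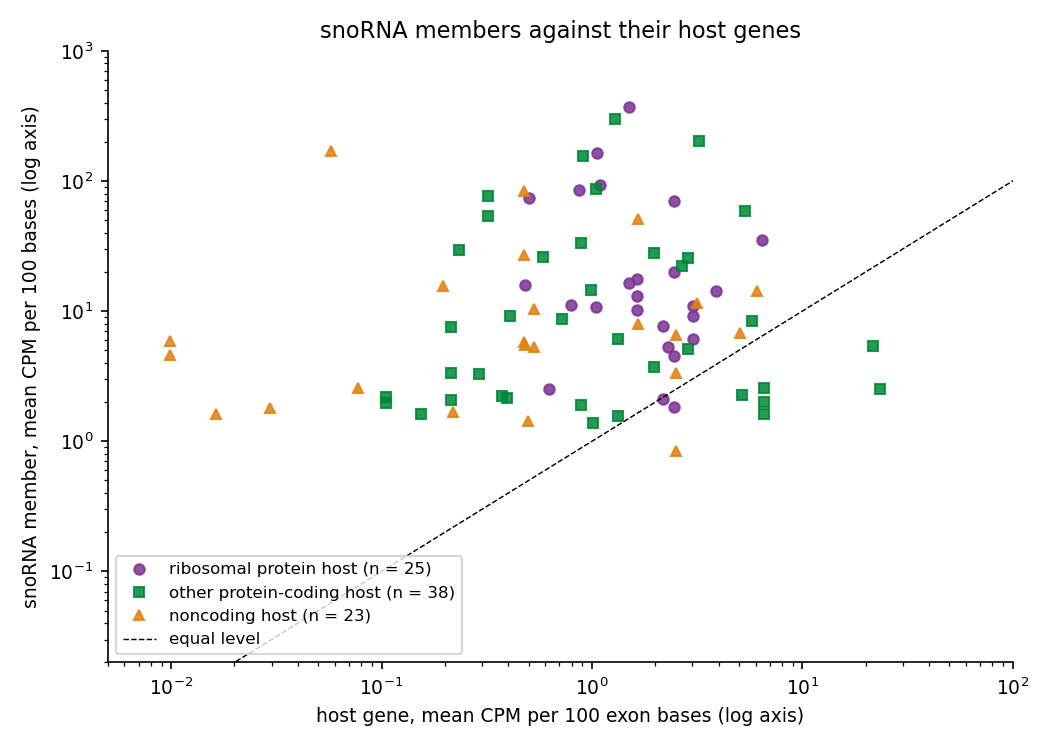
Mean CPM per 100 bases of each member against that of its host gene per 100 exon bases, both on log axes, for 86 members with a host above 0, by host type, with the line of equal level. Most members lie above the line, and Snord89, whose host Gm15832 is listed at 0, is not drawn. Members had to reach a mean of 1 CPM, while hosts had no minimum.

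Members cut from the same host differed widely. Rpl13a, a ribosomal protein gene, holds Snord32a at 58.7, Snord34 at 14.1, Snord33 at 3.80 and Snord35a at 1.66 CPM, while the host stood at 52.0 ± 3.07 CPM (SD, n = 2). Per 100 bases the range over these members was 38.3-fold. On the same scale, Snord83b lay 22.4-fold above Snord43, which is annotated as miRNA, in Rpl3. Snora75 lay 7.47-fold above Snord82 in Ncl. In 2410006H16Rik the range was 14.6-fold from Snord49a to Snord65. The ranges were narrow in Hspa8 (1.59-fold over 3 members) and Rpl23a (1.79-fold over 3 members).

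**Figure D5:**
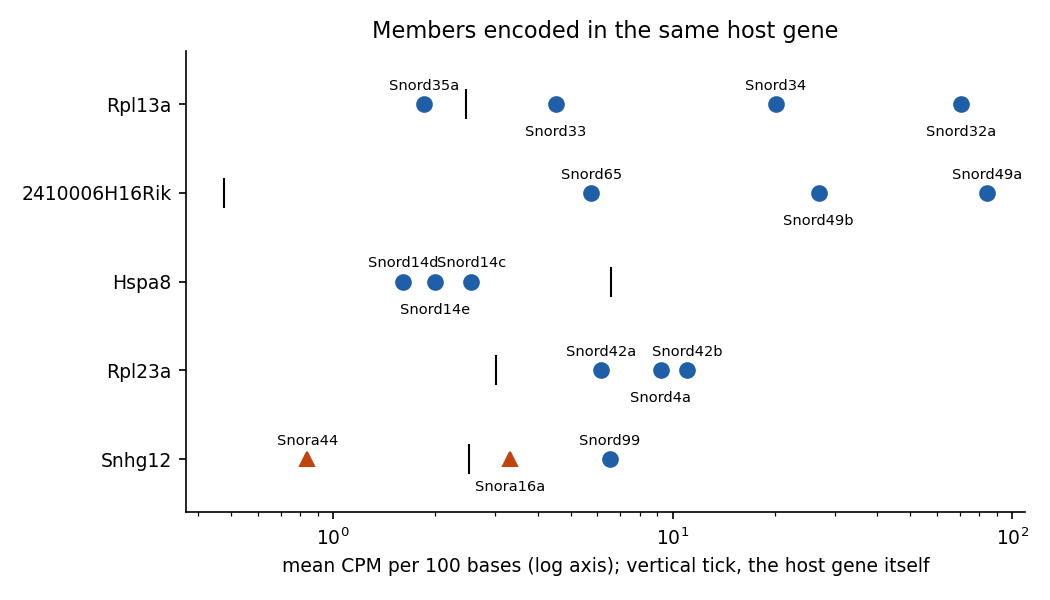
Mean CPM per 100 bases, on a log axis, of the members that share a host gene, for the 5 hosts with 3 or more members, with a vertical tick for the host itself. The members of Rpl13a spread most widely, and those of Hspa8 lie together below their host.

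The list of Snora and Snord genes that act in processing of the ribosomal RNA precursor has 10 rows in the table, of which 9 are members. Of these 9, 5 were higher in both replicates 3 and 4 (46.8% of all members, 24.6% of all genes) and 1 was lower (20.2% and 23.4%). Snora73a and Snora73b (the U17 RNAs, needed for 18S rRNA formation) had means of 21.2 and 10.9 CPM and are 96.6% identical, so reads between them are uncertain. Snora73b was 2.49-fold higher in replicates 3 and 4 and passed the chi-square test (adjusted p = 0.000462). Snord118 (U8, which acts in 5.8S and 28S rRNA formation) stood at 5.73, 3.42, 11.9 and 13.6 CPM and passed the chi-square test (adjusted p = 0.000555). Snord13 (U13) had a mean of 9.92 CPM and did not pass the chi-square test (adjusted p = 0.197). Snord22 (U22), in Snhg1, was lower in replicates 3 and 4 at 18.8, 20.1, 12.4 and 7.28 CPM. It lies within a host exon, its values are not whole reads, and all its windows of 28 bases occur in a host transcript (100%). Reads of Snord22 and of Snhg1 thus cannot be told apart by sequence, and Snhg1 stood at 83.8, 74.9, 110 and 107 CPM. Snora62 had a mean of 3.74 CPM, and the Snord14 (U14) genes in Hspa8 had means of 1.38 to 2.19 CPM, with Snord14a at 0.286 as the row that is no member.

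The imprinted snoRNAs of the Prader-Willi region are in mouse expressed from the paternal chromosome in neurons. Only rows with a Snord symbol were taken here, 19 in all and 17 of them named Snord116, so other rows of the region are not covered. These rows were nearly all listed at 0. This held in the 4 libraries for all 17 rows named Snord116 and for Snord107, and a 0 allows up to 3 reads in a library. The Snord116 rows are near copies: 68.7% to 100% of the windows of 28 bases in a row also occur in 69 other genes. A read from such a shared window could not be placed by sequence. The values of those other genes were not looked at, and the part of shared sequence in the values of 0 was not tested. Of the 19 rows of the list only Snord64 was a member, at 9.45, 11.8, 26.8 and 30.6 CPM, higher in replicates 3 and 4.

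The boxes followed the names. Exact copies of both TGATGA in the first 20 bases and CTGA in the last 15 bases were found in 41 of the 63 Snord members (65.1%), against 68 of all 99 Snord rows (68.7%), and the C box in 0 of 31 Snora members. Snord85 and Snord88c, shown above, have no exact TGATGA there. ACA in the last 8 bases together with ANANNA between 30% and 70% of the length was found in 28 of 31 Snora members (90.3%), against 37 of all 41 Snora rows (90.2%), and in 2 of 63 Snord members. The letters were searched on the RNA strand, and box matches other than these exact ones were not sought. A guide search against the part of 18S rRNA held by the transcript of Gm42418 (1831 bases) looked for at least 10 paired bases just upstream of a CTGA. It found 5 of 63 Snord members (7.94%) and 6 of all 99 Snord rows (6.06%), with 0 on the opposite strand. The most abundant was Snord110, in Nop56, itself a core protein gene of box C/D particles. Its guide stretch of 12 bases is in capitals here.
Snord110 (chr2:130275506-130275573, plus strand): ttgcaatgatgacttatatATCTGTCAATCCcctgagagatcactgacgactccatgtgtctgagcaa
The other 4 were Snord82, Snord61, Snord59a and Snord19, with runs of 11 to 13 bases and means of 1.57 to 2.60 CPM. A match is a description of letters, not a shown target.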

How the data were processed

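Ribosome footprints of dorsal root ganglia were measured in 4 libraries. Spin columns enriched RNA bound to ribosomes, which was depleted of rRNA, dephosphorylated, selected at 28 to 34 nt and made into small RNA libraries, per the labels' protocols. The submitters' processing notes name Bowtie2 2.2.9, TopHat2 2.1.1, Cufflinks 2.2.1, FastQC 0.11.5 and GRCm38.p4 (mm10). For the annotation, counting rule, strand and reads with several matches, the method was not given in the sources used here. Such reads matter for snoRNAs, which lie in host genes and have copies: 34 of 94 members (36.2%) had values that are not whole reads, 33 of them among the 45 members within a host exon, against 4.81% of genes.

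The deposited columns carry TPM in their names, yet their values are CPM by their steps: 96.5% to 97.0% of values above 0 are whole multiples of 1 step per library (tolerance 0.02 steps), whatever the gene. Dividing by the step gave reads. Levels between genes are compared per 100 bases of annotated length (host genes: union of exons). Of the IDs, 48052 were found in GENCODE M21, which gave coordinates, hosts and sequences. A host is a same-strand gene that contains the snoRNA; windows of 28 bases were searched in all annotated transcripts.

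Python 3.11.15, numpy 2.4.6, pandas 2.3.3, scipy 1.17.1, matplotlib 3.10.9 and biopython 1.88 were used. Log2 values have a pseudocount of 1. The chi-square test of homogeneity used at least 20 reads and an adjusted p of 0.05 and was tested on simulated data. P-values measure only the spread between these libraries, which may be technical. The members and lists were chosen with earlier results of these data known. Genes named are the 12 highest of each class, the given markers, the 4 rows on each side of the cutoff, the 10 with the largest chi-square and the processing, Rpl13a and imprinted lists, with hosts and the protein and small RNA lists. Snord88a, Snord37, Snord55, Snord43, Snord65, Snord82, Rnu3a and the genes of the guide search were named after their values were seen. Alternatives changed the cutoff, pseudocount, length scaling, read minimum, rounding and libraries. Some items are not reported here.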

Additional observations from a re-analysis of the deposited data

Results flagged for a closer look

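In 5 of 96 sets of 4 values (the 94 members and the 2 class sums), 1 library stood apart from the other 3 by Dixon's ratio, and chance alone gives about 1 in 20 such sets. Snord4a was at 9.96 CPM in replicate 3 and between 5.16 and 5.70 in the others. Snord14c was at 4.18 CPM in replicate 4, with 1.38 to 1.82 in the others. Snord19 was at 2.68 CPM in replicate 3, with 1.14 to 1.33 in the others. Snord2 was at 5.37 CPM in replicate 2, with 0 to 0.481 in the others. Snora57 was at 1.87 CPM in replicate 4, with 0.759 to 0.860 in the others. Except for Snord4a, all of these have few reads.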

How the results depend on the processing

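No paired analysis was possible because the libraries form 1 group. The difference between the classes was the least stable result. The Snora minus Snord difference of the median log2(CPM + 1) was 0.18; it was 0.13 with a pseudocount of 5 and 0.14 with a minimum mean of 0.5, and it reversed to -0.027 with a minimum of 2, -0.45 with a minimum of 5, -0.64 per 100 bases and -0.051 as a mean over members. It was 1.25 without members that share windows with other genes, 0.62 without them and per 100 bases, 0.38 in replicates 1 and 2 only, 0.14 in replicates 3 and 4 only, and 0.16 to 0.50 with each replicate left out. With a minimum mean of 5 there were 20 Snora and 37 Snord members. The summed Snora level was 621 CPM per 100 bases. Members that differed between libraries numbered 35 of 83 with reads rounded, 23 with median-ratio size factors, 0 in replicates 1 and 2 only, 0 in replicates 3 and 4 only, and 18 to 21 with each replicate left out. Members above their host numbered 78 per 100 bases, and 28 to 31 with each replicate left out. Members with an 18S match numbered 8 at 9 paired bases and 3 at 12. With each replicate left out, Snora members numbered 29 to 31 and Snord members 61 to 64, and their sums were 800 to 865 and 1699 to 2070 CPM. Of the named members, leaving out a replicate moved the mean by over 1.5 times for Snora3 (46.3 to 29.0 CPM without replicate 2) and Snora44 (1.08 to 0.710 CPM without replicate 4). The choices of rounding, the smaller set per 100 bases, size factors, single pairs and match length were made after seeing the data; the planned TMM factors were not run, since the table holds no counts. The cause of these shifts was not tested.

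The depth limits members near 1 CPM, which rest on a few reads per library. Copies and host exons limit members whose values are not whole reads. The 2 pairs leave 2 samples of 1 group, so the SDs are rough and no difference can be tied to a treatment.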
